A study of Homo sapiens with 2 samples.

Results

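The genes described here belong to the BCL2 family, which controls whether the outer mitochondrial membrane is opened during apoptosis. The 10 members were chosen by symbol: the anti-apoptotic genes BCL2L1, BCL2L2 and MCL1, the effectors BAX and BAK1, and the BH3-only genes BID, BIK, BBC3, PMAIP1 and BCL2L11. All 10 were found among the 63677 gene IDs of the deposited count tables, and all 10 were measured, meaning a mean of at least 1 count per 1000000 gene counts (CPM) over the libraries, as were 14423 genes in all. The series holds 2 RNA-seq libraries of MDA-MB-231, an established human triple-negative breast cancer line of mesenchymal character that carries mutant p53. 1 library is labelled control and 1 comes from cells given Carpesium cernuum extract (CCE), made from a plant, at 1 µg/mL for 24 h. Both samples carry that dose and time in their protocol text, so the groups follow the treatment characteristic, and the vehicle given to control cells is not stated in the labels. The comparison asks which transcripts differed between the treated and the control cells.

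In this family the anti-apoptotic proteins hold BAX and BAK1 inactive. The BH3-only proteins sense stress and either occupy the groove of the anti-apoptotic proteins or activate BAX and BAK1 directly, after which pores form, cytochrome c leaves the mitochondria and caspases are activated. Much of the regulation of BH3-only genes is transcriptional, while MCL1 protein is short-lived and depends on continued synthesis.

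The count tables held 5633569 gene counts for control and 34884501 for CCE, 6.19 times as many, so the control library set the precision. Since each group is a single library, no test was run and no replicate stands behind any value. Each ratio carries an exact 95% Clopper-Pearson interval that reflects the sampling of reads alone, without any variation among cultures. A gene was called higher or lower when its scaled counts differed by at least 1.5-fold and that interval excluded equality. The defining transcripts of the line were present, with VIM at 3690.0 and 1824 CPM and CD44 at 757 and 624 CPM in the control and CCE libraries. All 5 markers fixed as high in this line had a lower ratio with CCE and 3 of them (VIM, AXL and CAV1) were called lower, and any part of this in the values of the members was not tested. ESR1 had 0 counts in both, PGR 0 and 6 and CDH1 0 and 1, while ERBB2 had 54.7 and 52.5 CPM. Markers of leukocytes, endothelial cells and fibroblasts held 10, 0 and 2 control counts and 28, 0 and 8 CCE counts, with PECAM1 not matched. The luminal epithelial genes KRT8, KRT18 and EPCAM were expressed, with 2163 and 10739 counts in all. Their log2 ratios were -0.40, -0.25 and -0.39, all below 0 as for most members, with none called, and any part of this in the values of the members was not tested. In bulk RNA, a lower level in every cell and a lower share of cells that express a gene cannot be told apart.

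The members share the BH3 segment, a helix that takes part in binding between family proteins. Its coding sequence is shown because all 10 members carry it, although the segment alone does not define the family. Each sequence was read from the canonical transcript of GENCODE release 44 on GRCh37. The pattern searched in the translated sequence was leucine or methionine, any 3 residues, glycine or alanine, then aspartate, and it matched exactly 1 place in each of the 10 proteins. The 30 bases printed run 5′ to 3′ on the coding strand. Capitals mark the codons of the leucine (or methionine), glycine (or alanine) and aspartate of that pattern.
BCL2L1: caagcgCTGagggaggcaGGCGACgagttt
BCL2L2: caagccATGcgggcagctGGAGATgagttc
MCL1: gagaccTTAcgacgggttGGGGATggcgtg
BAX: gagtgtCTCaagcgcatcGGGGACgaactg
BAK1: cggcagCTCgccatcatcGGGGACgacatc
BID: aggcacCTCgcccaggtcGGGGACagcatg
BIK: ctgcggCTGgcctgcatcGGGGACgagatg
BBC3: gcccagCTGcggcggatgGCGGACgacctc
PMAIP1: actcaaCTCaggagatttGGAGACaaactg
BCL2L11: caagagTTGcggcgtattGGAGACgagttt

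BCL2L2 was the member with a methionine codon in place of leucine, and BBC3 the member with an alanine codon in place of glycine. Each segment lay within a single coding exon. The anti-apoptotic segments lay at chr20:30309731-30309760 (BCL2L1, minus strand), chr14:23777106-23777135 (BCL2L2, plus) and chr1:150551347-150551376 (MCL1, minus). The effector segments lay at chr19:49459038-49459067 (BAX, plus) and chr6:33543170-33543199 (BAK1, minus). Those of the BH3-only genes lay at chr22:18222187-18222216 (BID, minus), chr22:43523716-43523745 (BIK, plus), chr19:47729842-47729871 (BBC3, minus), chr18:57569899-57569928 (PMAIP1, plus) and chr2:111907674-111907703 (BCL2L11, plus).

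Among the 10 members, 3 were at least 1.5-fold lower in the CCE library and 0 were higher. The lower members were BCL2L2, an anti-apoptotic gene, and BIK and BBC3, of the BH3-only class, so lower members stood on both sides of the family. Over all 14423 measured genes, 10.3% were called lower and 13.6% higher by the same rule. Over the 11635 measured protein-coding genes these shares were 9.9% and 13.1%. At a 2-fold threshold BIK alone remained among the members, where 4.52% of measured genes were lower and 4.86% higher, or 3.93% and 3.64% of the protein-coding ones. The ratio was below equality for 9 members, with an interval that excluded equality for 6 of them, and 4 of the 10 intervals included equality. The shares of all measured genes that meet these criteria are not given here, so these counts have no reference. The median log2 ratio of the members was -0.43 (order-statistic interval over the members -0.98 to -0.02), beside 0.09 over all measured protein-coding genes, whose interquartile range was -0.25 to 0.40. The ends of the order-statistic interval are the ratios of BCL2L2 and BCL2L11. It describes the spread among 10 chosen genes, which are not replicates, so it does not measure support for a difference. GC content moved with the ratios of all genes: the median log2 ratio of protein-coding genes was 0.22 in the decile of genes with the lowest exonic GC content and -0.16 in the highest decile. The members had exonic GC contents between 40.0% (PMAIP1) and 64.4% (BBC3), and after each was centred on the median of its own GC decile their ratios lay between -1.48 (BIK) and -0.01 (BAK1).

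**Figure D1:**
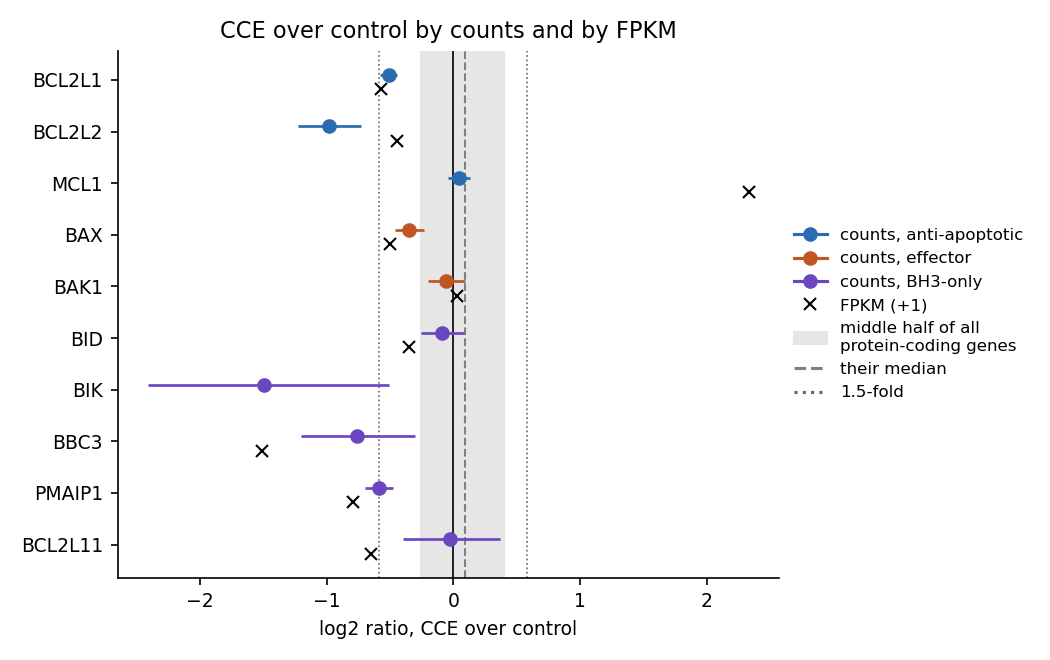
Log2 ratio of library-scaled counts, CCE over control, for each member (circles, coloured by role, with 95% counting intervals), and of the authors' summed FPKM with a pseudocount of 1 (crosses; BIK has none). BIK, BCL2L2 and BBC3 lie beyond the dotted 1.5-fold line and PMAIP1 on it, while the FPKM cross of MCL1 stands far to the right of its count value.

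Of the anti-apoptotic genes, BCL2L1 encodes BCL-XL, which restrains BAX and BAK1 at the mitochondrion. It had 2210 control counts and 9609 CCE counts, or 392 and 275 CPM. BCL2L1 was therefore 1.42-fold lower with CCE (interval 1.36 to 1.49), under the 1.5-fold threshold, and 13.3% of protein-coding genes had a lower ratio. Under upper-quartile scaling its log2 ratio was -0.593, past the threshold. The annotation places a noncoding gene, ABALON, on the opposite strand over 1735 bases of BCL2L1 exon. The gene ID of ABALON was not among those counted, and the labels do not say whether the counting used strand.

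BCL2L2 encodes BCL-W, a close relative of BCL-XL. It had 179 control counts and 562 CCE counts, 31.8 and 16.1 CPM, and was 1.97-fold lower with CCE (1.66 to 2.34). Only 4.30% of protein-coding genes had a lower ratio. The gene spans 23767999 to 23780960 on chromosome 14 (GRCh37) and shares 815 bases of exon with the read-through gene BCL2L2-PABPN1, which was listed with 2 and 6 counts. The downstream partner of that read-through, PABPN1, had 619 and 2321 counts. On the opposite strand PPP1R3E, with 74 and 447 counts, overlaps a further 315 bases. HOMEZ, on that strand too, overlaps 149 bases, and its annotated gene ID was not among those counted. Reads from shared exons can be lost as ambiguous, so the level of BCL2L2 is uncertain, and the effect of this on its ratio was not tested.

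MCL1 is the anti-apoptotic member that PMAIP1 protein binds most selectively. It had 1201 and 7663 counts, 213 and 219.7 CPM, and a log2 ratio of 0.04 (interval -0.04 to 0.13). No difference was detectable in the counts at this depth. The sign of this small ratio turned under upper-quartile scaling (-0.04) and after GC centring (-0.06). By the authors' FPKM, in contrast, MCL1 was listed at 7.02 for control and 39.4 for CCE, a log2 ratio of 2.33 on the log2(FPKM + 1) scale. The count and FPKM tables thus gave unlike answers for MCL1, and the cause was not tested.

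The effectors BAX and BAK1 form the pores in the outer mitochondrial membrane. BAX had 730 control counts and 3550 CCE counts, 129.6 and 102 CPM, and was 1.27-fold lower with CCE (1.17 to 1.38), under the threshold. BAK1 had 461 and 2745 counts, 81.8 and 78.7 CPM, and a log2 ratio of -0.06 (-0.20 to 0.09), with no difference detectable at this depth. Neither effector was called, and BAX overlaps no other annotated exon.

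Among the BH3-only genes, BIK and BBC3 were lower. BIK, whose product acts largely from the endoplasmic reticulum, lies on chromosome 22 from 43506756 to 43525718. It had only 15 control counts and 33 CCE counts, 2.66 and 0.946 CPM. BIK was 2.81-fold lower with CCE, but its interval ran from 1.42- to 5.33-fold because of the few control counts. By FPKM it was listed at 0 in both libraries, so the FPKM table gives no ratio for it.

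BBC3 encodes PUMA, a p53-inducible protein that binds all the anti-apoptotic members. The gene lies on chromosome 19 from 47724079 to 47736023. It had 54 and 197 counts, 9.59 and 5.65 CPM, and was 1.70-fold lower with CCE (1.23 to 2.30). The decile of genes with the highest GC content, to which BBC3 belongs, had a median log2 ratio of -0.16, and relative to it BBC3 stood at -0.60, still past the 1.5-fold threshold of 0.585. By FPKM it was lower as well, at 9.04 and 2.52. A microRNA gene on the opposite strand, MIR3191, overlaps 80 bases of BBC3 and had 0 and 1 counts.

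PMAIP1 encodes NOXA, another p53-inducible protein, which can also be induced through ATF4. It was the most abundant BH3-only transcript, with 827 and 3415 counts, or 146.8 and 97.9 CPM. PMAIP1 was 1.4996-fold lower (1.39 to 1.62) and its log2 ratio of -0.5845 did not reach the threshold of 0.5850 in size. Under TMM scaling the log2 ratio was -0.62, and it was past 1.5-fold under each other scaling run. PMAIP1 belongs to a GC-poor decile of genes with a median of 0.23, relative to which it stood at -0.82. By FPKM it was lower too, at 58.9 and 33.6.

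BID and BCL2L11 were the BH3-only members with no detectable difference. BID, which caspase-8 cleaves to link death receptors to mitochondria, had 328 and 1912 counts, 58.2 and 54.8 CPM, and a log2 ratio of -0.09 (-0.26 to 0.09). BCL2L11 encodes BIM, a direct activator of BAX that is induced by FOXO factors and loss of growth signals. It had 68 and 414 counts, 12.1 and 11.9 CPM, and a log2 ratio of -0.02 (-0.40 to 0.37). The interval of BCL2L11 runs from 1.32-fold lower to 1.29-fold higher, so a difference within that range was not detectable. On the opposite strand, MIR4435-2HG overlaps 727 bases of BCL2L11 exon and held 506 and 3525 counts.

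The authors' FPKM put most members on the same side as the counts. BCL2L1 stood at 106 and 70.9 FPKM, BCL2L2 at 5.11 and 3.49, BAX at 71.2 and 50.2, and BID at 22.9 and 17.8, each lower with CCE. BCL2L2 was under the 1.5-fold threshold by FPKM, with log2 ratios of -0.44 (pseudocount 1) and -0.54 (pseudocount 0.1). The members past it on the lower side by FPKM were BBC3, PMAIP1 and BCL2L11. BAK1, at 29.7 and 30.3, turned from a ratio slightly below equality to one slightly above. BCL2L11 stood at 2.56 and 1.27 FPKM, a log2(FPKM + 1) ratio of -0.65 that lies outside its counting interval. The FPKM ratios of BCL2L2, MCL1, BAX, BID, BBC3 and PMAIP1 also lay outside their counting intervals. With a pseudocount of 1, only those of BCL2L1 and BAK1 lay inside, so a shared side did not mean a like size. With a pseudocount of 0.1, BCL2L1 (-0.580) also lay outside, just past its lower bound of -0.577. MCL1, described above, was the member on which the tables differed most.

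Ratios of counts between a pair of members within a library do not depend on how the libraries were scaled. They are not centred on GC content, with which the ratios of all genes moved. Over all 45 pairs of members, 29 had a 95% interval for CCE over control that excluded 1. The pairs reuse the same members and so are not independent. No share over pairs of other genes is given here, so this count has no reference. Of the 36 pairs with FPKM values above 0, 27 lay on the same side by FPKM. The 8 pairs given here were chosen after their values were seen and are a description. BCL2L1 counts per MCL1 count went from 1.84 (control) to 1.25 (CCE), 1.47-fold lower (1.36 to 1.59). PMAIP1 counts per MCL1 count, the pair of a BH3-only gene and the protein it prefers to bind, went from 0.689 to 0.446, 1.55-fold lower (1.40 to 1.70). By FPKM BCL2L1 per MCL1 went from 15.1 to 1.80 and PMAIP1 per MCL1 from 8.38 to 0.853. Both falls were far larger than by counts, and the cause was not tested. BAX counts per BCL2L1 count were 0.330 and 0.369, 1.12-fold higher (1.02 to 1.23), and BAX per BAK1 was 1.22-fold lower (1.08 to 1.39). BCL2L11 counts per BBC3 count went from 1.26 to 2.10, 1.67-fold higher (1.10 to 2.52). The GC deciles of BCL2L11 and BBC3 had median log2 ratios of 0.11 and -0.16, and any part of this in their pair ratio was not tested. BCL2L11 per BCL2L1 was 1.40-fold higher by counts (1.08 to 1.85), but by FPKM it went from 0.0241 to 0.0179, which is lower. BCL2L2 per BCL2L1 was 1.38-fold lower by counts (1.16 to 1.65), but stood at 0.0482 and 0.0492 by FPKM. BBC3 per BCL2L1 was 0.0244 and 0.0205 by counts, a ratio of 0.839 with an interval from 0.616 to 1.16 that included 1. By FPKM this pair stood at 0.0852 and 0.0355, a ratio of 0.416 that lies outside that interval. A ratio does not tell which gene of a pair differed.

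Levels between genes were compared per length, as counts per kilobase of annotated exon per 1000000 gene counts. In the control library BCL2L1 was highest at 93.5, followed by PMAIP1 (67.2), BAX (50.1), BAK1 (36.99), MCL1 (34.3), BID (13.2), BCL2L2 (6.56), BBC3 (3.01), BIK (2.80) and BCL2L11 (1.79). In the CCE library the order of the first 8 was the same, with BCL2L1 at 65.6, PMAIP1 at 44.8, BAX at 39.3, BAK1 at 35.6, MCL1 at 35.3, BID at 12.4, BCL2L2 at 3.33 and BBC3 at 1.77. BCL2L11 (1.76) and BIK (0.995) followed. BAK1 and MCL1 did not differ beyond counting error in either library, nor did BBC3 and BIK or BIK and BCL2L11 in the control, or BBC3 and BCL2L11 in the CCE library. With the length of the canonical transcript, an alternative added after seeing the data, BAX stood above BCL2L1 in both libraries (163 and 152 for control, 128 and 107 for CCE). By the authors' FPKM BCL2L1 led in both (106 and 70.9), and MCL1 was the seventh for control and the third for CCE.

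**Figure D2:**
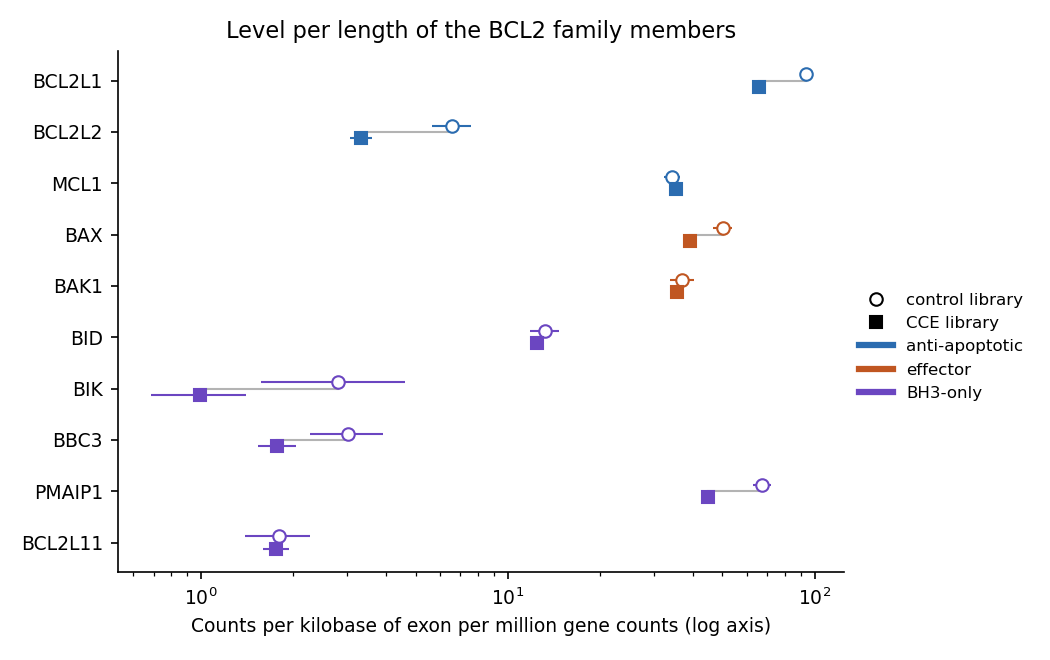
Level of each member in counts per kilobase of annotated exon per 1000000 gene counts, on a log axis, in the control (open circles) and CCE library (filled squares), with exact 95% Poisson intervals. The levels span from 93.5 for BCL2L1 in the control to 0.995 for BIK in the CCE library, and the paired symbols overlap for MCL1, BAK1, BID and BCL2L11.

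Summed by role, the anti-apoptotic members made up 43.4% of the members' total level per length for control and 43.3% for CCE. The effectors took 28.2% and 31.1%, and the BH3-only genes 28.4% and 25.6%. PMAIP1 made up most of the BH3-only level. By FPKM the anti-apoptotic share was instead 37.8% for control and 45.6% for CCE, and MCL1 was the anti-apoptotic member with a higher FPKM value in the CCE library. The effector share by FPKM was 32.3% in each library, and the BH3-only share 29.9% and 22.1%. By canonical transcript length the effectors took 37.8% and 39.6%, and the BH3-only genes 21.6% and 20.0%. The effector and BH3-only shares thus depended on the length or measure used.

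**Figure D3:**
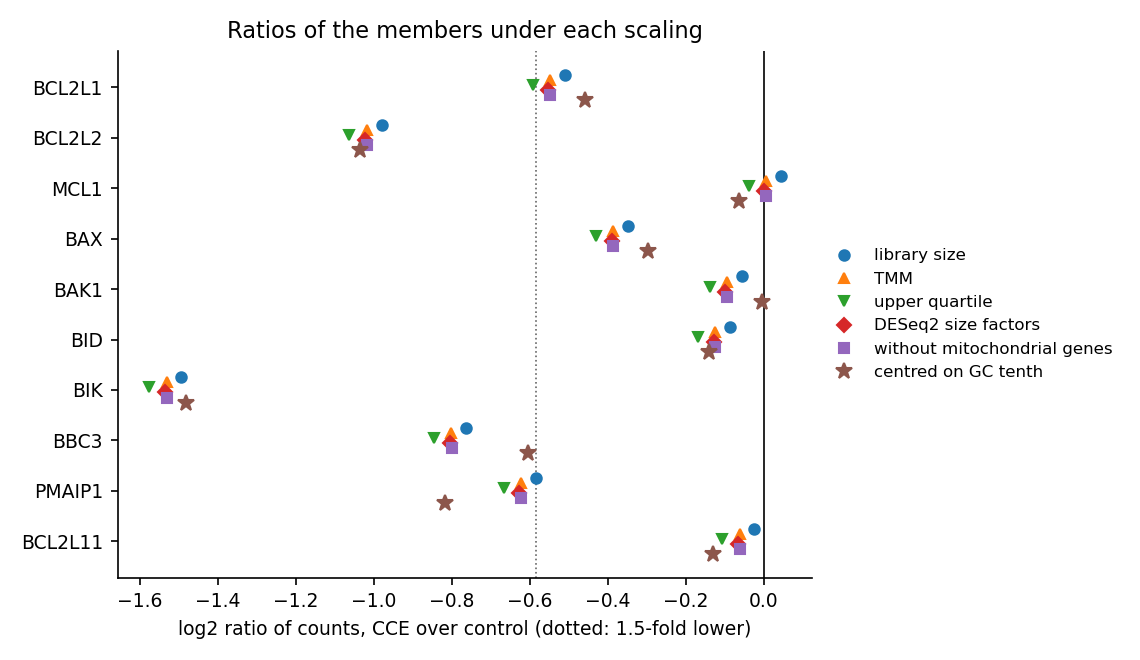
Log2 ratio of counts, CCE over control, for each member under library-size scaling (circles), 4 other scalings, and centring on genes of like GC content (stars). The scalings shift all members together and carry PMAIP1 past the dotted 1.5-fold line, as upper-quartile scaling also does for BCL2L1, while GC centring moves PMAIP1 to -0.82 and BBC3 to -0.60.

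Of 13 other BCL2 family genes, 8 were measured, BAD was called lower and BCL2L13 higher, with a median log2 ratio of -0.16. For this list and those that follow, the shares over all measured genes were 10.3% lower and 13.6% higher. BAD, a BH3-only gene whose product is held in check by phosphorylation, had 459 and 1680 counts (81.5 and 48.2 CPM) and was 1.69-fold lower (1.52 to 1.88). BCL2L13, a mitophagy receptor of the mitochondrial outer membrane, had 228 and 2532 counts (40.5 and 72.6 CPM) and a log2 ratio of 0.84 (0.65 to 1.04). Both were on the same side by FPKM, BAD at 68.3 and 34.6 and BCL2L13 at 7.50 and 16.2. BCL2 itself had only 30 and 157 counts (5.33 and 4.501 CPM), with a log2 ratio of -0.24 (-0.81 to 0.37). By FPKM BCL2 lay on the other side, at 0.513 and 0.993. The effector relative BOK had a log2 ratio of -0.45 (-0.66 to -0.23) by counts and was listed at 3.75 and 0 FPKM. By counts BCL2L12 had -0.31 (-0.50 to -0.11) and the BH3-only gene BMF 0.35 (-0.15 to 0.89). The mitophagy receptor genes BNIP3 and BNIP3L had ratios of -0.01 (-0.13 to 0.12) and -0.07 (-0.21 to 0.07) by counts, while BNIP3 was listed at 111 and 2.02 FPKM. BCL2A1, BCL2L10, HRK, BCL2L14 and BCL2L15 held between 0 and 5 counts in each library and were not measured.

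Downstream of the pores, 11 of 11 genes of mitochondrial release and the apoptosome were measured, with 1 lower, 1 higher and a median log2 ratio of -0.12. APAF1, the scaffold of the apoptosome, had 82 and 269 counts and a log2 ratio of -0.92 (-1.28 to -0.54). CASP9, the caspase that APAF1 activates, had 25 and 319 counts and a log2 ratio of 1.04 (0.45 to 1.69). The transcripts of these partners thus lay on opposite sides. AIFM1, which encodes apoptosis-inducing factor, had 0.34 (0.12 to 0.57) by counts but was lower by FPKM (13.9 and 7.53), and the endonuclease gene ENDOG had -0.23 (-0.453 to -0.003); neither was called. The abundant genes VDAC1, a channel of the outer membrane, and CYCS, which encodes cytochrome c, had -0.05 (-0.12 to 0.02) and -0.19 (-0.26 to -0.12) by counts. On the log2(FPKM + 1) scale VDAC1 had -0.55 and CYCS -1.12, both outside these intervals, and the cause was not tested.

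Of 12 protein partners and turnover factors of the family, all 12 were measured and 0 were called in either direction, with a median of -0.07. The deubiquitinase gene USP13, whose product stabilises MCL1, had -0.46 (-0.67 to -0.24), and BECN1, an autophagy gene with a BH3 segment, -0.34 (-0.47 to -0.21). FBXW7, of the ubiquitin ligase that marks MCL1 for degradation, had 0.31 (-0.01 to 0.63) by counts and -1.20 by FPKM. The most abundant were TPT1, a partner of MCL1, at -0.29 (-0.33 to -0.25) and TMBIM6, also called BAX inhibitor 1, at 0.25 (0.21 to 0.30).

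Of 13 transcription factor genes known to act on the family, 12 were measured, 2 were lower and 1 higher, with a median of 0.14. E2F1, which can induce several BH3-only genes, had 348 and 1240 counts and a log2 ratio of -0.80 (-0.97 to -0.62), and JUN, of AP-1, had -0.64 (-0.82 to -0.46). DDIT3, which encodes the stress factor CHOP, had 396 and 3738 counts and 0.61 (0.46 to 0.76), and it was no longer past the threshold under TMM scaling. ATF4, the most abundant of them, had 409.7 and 410.4 CPM and a log2 ratio below 0.01 in size (interval -0.06 to 0.07), and MYC had 0.43 (0.33 to 0.53). Whether any of these factors bears on the members was not tested.

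**Figure D4:**
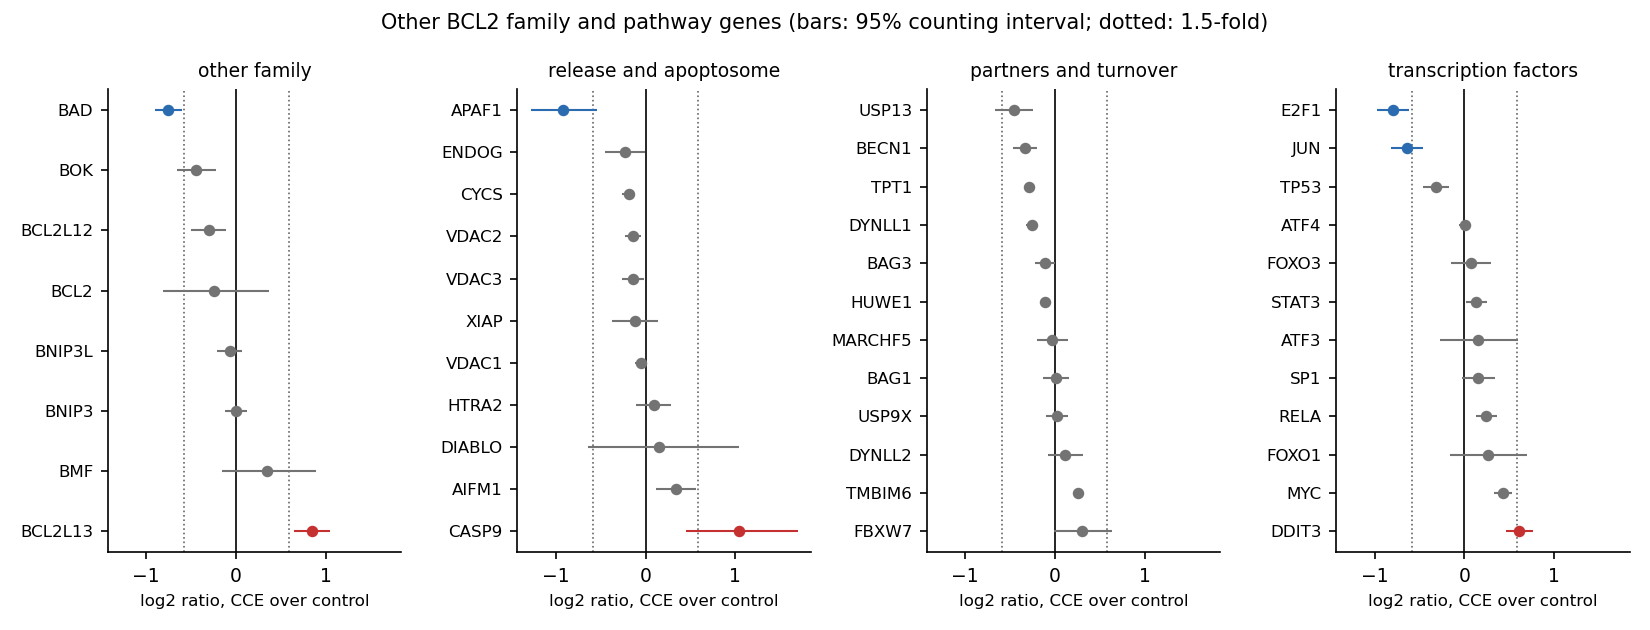
Log2 ratio of library-scaled counts, CCE over control, of the measured genes in 4 lists outside the 10 members, with 95% counting intervals (blue lower, red higher, grey not called at 1.5-fold, dotted lines). BAD, APAF1, E2F1 and JUN lie past the lower line and BCL2L13, CASP9 and DDIT3 past the upper one, while none of the partners and turnover factors does.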

How the data were processed

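The authors deposited 1 table of raw counts by Ensembl gene ID per library, from reads aligned to hg19 (GRCh37) with HISAT2, both named per the submitters' processing notes. No label or file header gives the counting program, its strand setting or the annotation release. The 5 rows that name no gene (62.9% of control and 66.8% of CCE records) were left out. The authors also deposited FPKM values with several rows per gene ID and no transcript names, which were summed per gene; their depth is unknown. Symbols, exon lengths, overlaps and GC content came from GENCODE release 44 lifted to GRCh37 (55665 IDs matched).

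Counts were divided by total gene counts, with no pseudocount for ratios. Intervals came from scipy 1.17.1 and scaling factors from edgeR 4.0.16 and DESeq2 1.42.0 in R 4.3.3. The calculation of intervals was checked on simulated counts that held only the sampling of reads at the depths of these libraries. There 95.7% of intervals covered the value set. Such counts hold no variation among cultures or library preparations, so the check says nothing about it. Since PCR copies are not separate molecules, intervals reflect the sampling of reads only. A single count was worth 0.178 CPM (control) or 0.0287 CPM (CCE). The members and lists were chosen with earlier results of these data known. Named genes were all members, the other family genes, and per further list up to 4 members with the largest absolute ratio and the 2 most abundant; some genes of these lists are not reported here. Alternatives were other scalings, FPKM with pseudocounts of 1 and 0.1, count filters, GC centring, no overlapping genes and a 2-fold threshold.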

Additional observations from a re-analysis of the deposited data

How the results depend on the processing

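With 1 library per group no replicate could be left out, and transcript-level FPKM values of the members were not used because the tables name no transcripts. The number of lower members was 3 by library size, 4 under TMM scaling and 5 under upper-quartile scaling, which added PMAIP1 and BCL2L1. It was 1 among the members that overlap no other exon (BIK) and 1 at a 2-fold threshold (BIK), both of which test fewer genes or ask for more; BIK rests on 15 control counts and was absent at a mean of 5 CPM. By FPKM with either pseudocount, 1 member was at least 1.5-fold higher (MCL1) and 3 lower (BBC3, PMAIP1 and BCL2L11, without BCL2L2), and the cause was not tested. In the other 4 lists, 4 of 43 measured genes were lower and 3 higher by counts, beside 10.3% and 13.6% of all measured genes. Among genes without exon overlap these numbers were 2 and 1. At 2-fold they were 0 and 1, beside 4.52% and 4.86% of all measured genes. By FPKM with a pseudocount of 1 they were 15 and 6 at 1.5-fold, and with 0.1 they were 16 and 8, cause not tested. The share of all genes past the threshold is not given here for FPKM or the other scalings, so these numbers have no reference. The anti-apoptotic share of the summed level was 37.8% (control) and 45.6% (CCE) by FPKM, and 40.6% and 40.3% by canonical transcript length. The median of the members stayed below 0 in each alternative that gave one.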

Other observations

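Most genes of the family had several FPKM rows without transcript names, and BIK and BOK had 1. Among the 9 members with any FPKM, the row with the highest value was the same in both libraries for 6. For BBC3 the sixth row held 8.97 (control) and 0.03 (CCE), while the fifth held 0 and 2.48. In BCL2L2 the sixth row held 4.95 and 0.29 and the second 0.01 and 3.21, and in BCL2L11 the highest row was also a different one. The mitophagy receptor gene BNIP3 was listed at 111 FPKM for control and 2.02 for CCE, although its counts, 640 and 3949, gave 113.6 and 113.2 CPM. DIABLO, named after its values were seen, encodes a protein that frees caspases from their inhibitors and overlaps exons of 3 other genes. It had 15 and 103 counts but 28.9 and 20.7 FPKM.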
